A study of Homo sapiens with 12 samples.

Results

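The genes described here encode subunits of the 5 complexes of oxidative phosphorylation. They were chosen by symbol in the deposited count table: the 13 protein-coding genes of mitochondrial DNA (MT-encoded), and 74 nuclear genes whose names follow the NDUF, SDH, UQCR, COX and ATP5 patterns. The 87 members stand among 60669 gene identifiers, and all 87 were among the 16393 genes tested. The lowest raw count of any member in any library was 134. Complex I has 7 MT-encoded and 37 nuclear members, complex II has 4 nuclear members, complex III 1 and 8, complex IV 3 and 10, and complex V, the ATP synthase, 2 and 15. NDUFA4 is counted under complex I by its symbol, although it is known as a subunit of complex IV. Subunits with other names, such as CYC1 and NDUFAB1, fall outside the pattern and are given as a list of their own below.

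The cells were HT1080, a human fibrosarcoma line, and all 12 libraries came from cells stably expressing dCas9, a Cas9 without cutting activity, under blasticidin and puromycin selection. In CRISPR interference, dCas9 is directed by a guide RNA to a site where it represses transcription. The control line carried a guide against GFP, a sequence human cells lack. The other line carried a guide against LTR8B, a retroviral long terminal repeat in the first intron of SP140, and its libraries are titled as SP140 knockdown. Each line was left untreated or given 10 U/mL interferon beta (IFNB) for 4 h, and polyadenylated RNA was sequenced. The groups held 2 GFP untreated, 2 GFP IFNB, 4 LTR8B untreated and 4 LTR8B IFNB libraries. The labels do not say whether a line is 1 clone or whether replicates came from separate cultures, so p-values measure the spread between these libraries, which may be technical.

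Complexes I to IV pass electrons from NADH and succinate to oxygen. Complexes I, III and IV pump protons across the inner mitochondrial membrane as they do so, complex II does not, and complex V uses the resulting gradient to make ATP. Mitochondrial DNA is transcribed by its own polymerase as long precursors from both strands, which are cut into separate mRNAs at the tRNAs between them, whereas nuclear subunits are made in the cytosol and imported. Each complex except II therefore needs products of both genomes. NRF1 and GABPA, a factor of the ETS family, are known as nuclear activators of many respiratory genes.

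Features of sequence bear on how the members were counted and compared. Neighbouring MT-encoded genes share bases, shown here because a read from those bases belongs to both genes. The first sequence is the shared stretch of MT-ATP8 and MT-ATP6 (hg38, GENCODE release 29, + strand, chrM:8527-8572, 46 bases), with the start codon of MT-ATP6 and the stop codon of MT-ATP8 in capitals. The other is the 7 bases shared by MT-ND4L and MT-ND4 (chrM:10760-10766), all in capitals.
MT-ATP8 and MT-ATP6: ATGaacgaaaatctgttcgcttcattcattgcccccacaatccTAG
MT-ND4L and MT-ND4: ATGCTAA
MT-ATP8 spans 207 bases, so the 46 shared bases are a large share of it, while MT-ND4 spans 1378 bases. Nuclear DNA also holds copies of mitochondrial sequence. MTATP6P1 (chr1:633696-634376) was identical to MT-ATP6 at 671 of 681 aligned bases, or 98.53%, and MTND2P28 (chr1:629640-630683) matched MT-ND2 at 98.37% of 1042. Over all libraries MTATP6P1 received 17.09% as many counts as MT-ATP6, and MTND2P28 received 8.784% as many as MT-ND2. The counting program assigned reads among such copies, so the split of counts between each gene and its copy is uncertain. In all, 592 pseudogenes named after a member were listed, 464 had no count in any library, and 4 had 1000 counts or more.

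The nuclear members were also matched to RefSeq promoters (GRCh38.p14), using the 250 bases before the transcript start, and 61 of 74 had an entry. The letters searched on both strands were GCGC, any 2 bases and GCGC for NRF1 (the same on both strands), CCGGAAG for GABPA, AAGATGG for YY1, and GAAA, any 2 bases and GAAA for the interferon-stimulated response element. The NRF1 letters were in 14 of the 61 windows (23.0%) against 7.34% of the windows of 27305 genes. The GABPA letters were in 16 (26.2%, against 8.79%) and the YY1 letters in 5 (8.2%, against 3.74%). Windows of 64 mitochondrial ribosomal protein genes had higher shares of GABPA (31.2%) and YY1 letters (9.38%) and a lower share of NRF1 letters (10.9%). By complex, the NRF1 share ran from 0.0% (complex IV, 9 windows) to 66.7% (complex II, 3 windows). The GABPA share ran from 12.9% (complex I, 31 windows) to 66.7% (complex II). The interferon element was in 0 of the 61, against 3.05% of all genes and 6 of the 9 core interferon genes that had an entry. With so low a share over all genes, no depletion can be read from 0 of 61. The window of PNPT1, a gene that rose with IFNB (below), also lacked the element. These are matches of letters, not measured binding. The windows of 4 genes are printed, with matches in capitals: NDUFV3, which edgeR called in the averaged IFNB response below; SDHD and UQCR11, the members that held both the NRF1 and the GABPA letters; and IFIT1, an interferon gene of the treatment check, for contrast. They lie at chr21:42893059-42893308 (+), chr11:112086623-112086872 (+), chr19:1605463-1605712 (-) and chr10:89392373-89392622 (+).
NDUFV3: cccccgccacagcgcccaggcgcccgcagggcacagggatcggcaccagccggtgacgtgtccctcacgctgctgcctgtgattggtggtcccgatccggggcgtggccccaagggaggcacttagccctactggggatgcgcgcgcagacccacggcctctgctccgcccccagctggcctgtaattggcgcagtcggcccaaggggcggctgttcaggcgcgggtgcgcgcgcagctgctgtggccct
SDHD: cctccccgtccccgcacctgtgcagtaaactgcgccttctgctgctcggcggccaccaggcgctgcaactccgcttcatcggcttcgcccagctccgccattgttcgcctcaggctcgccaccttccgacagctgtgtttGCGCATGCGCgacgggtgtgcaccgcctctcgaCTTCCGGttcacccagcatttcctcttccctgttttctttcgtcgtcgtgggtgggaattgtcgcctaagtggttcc
UQCR11: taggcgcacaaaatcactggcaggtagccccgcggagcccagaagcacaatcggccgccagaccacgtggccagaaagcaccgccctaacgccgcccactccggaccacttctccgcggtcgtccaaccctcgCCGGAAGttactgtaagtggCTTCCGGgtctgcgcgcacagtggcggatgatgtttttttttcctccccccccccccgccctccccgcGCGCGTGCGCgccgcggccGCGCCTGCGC
IFIT1: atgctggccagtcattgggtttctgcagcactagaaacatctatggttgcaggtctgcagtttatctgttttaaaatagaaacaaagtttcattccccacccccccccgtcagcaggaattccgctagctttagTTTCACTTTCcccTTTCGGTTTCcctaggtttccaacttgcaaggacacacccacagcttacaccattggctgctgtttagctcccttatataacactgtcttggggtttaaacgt
The NDUFV3 window held none of the 4 sets of letters. SDHD held the NRF1 letters 110 to 101 bases before its start and the GABPA letters 77 to 71 bases before it. UQCR11 held each of the pair at 2 places.

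Total counts ran from 12404270 to 28801579 per library. SP140, the gene that holds the targeted element, was at 29.77 to 32.04 CPM (read counts relative to library size, scaled by the trimmed mean of M values) in the 4 GFP libraries and at 0.515 to 1.84 CPM in the 8 LTR8B libraries. All 10 core interferon genes rose with IFNB in each line (edgeR quasi-likelihood test, Benjamini-Hochberg adjusted over all genes), from 2.69 (MX1) to 12.45 (RSAD2) on the log2 scale in GFP cells and from 2.42 to 11.71 in LTR8B cells. Fibroblast and mesenchymal markers were between 68.1 CPM (TIMP1) and 3953 CPM (VIM), and no epithelial, blood, neural or muscle marker exceeded 1.24 CPM (SYP).

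The MT-encoded members were the most abundant respiratory chain transcripts. They took 2.59% to 3.56% of all counts in a library, and the 74 nuclear members together took 0.791% to 0.937%. Per length (CPM per kilobase of annotated transcript, mean of 12 libraries), the median MT-encoded member was at 2095 and the median nuclear member at 103.2, a ratio of 20.3. Complex IV led: MT-CO3 stood at 4882, MT-CO1 at 4872 and MT-CO2 at 4662 CPM per kilobase, the core subunits of cytochrome c oxidase that hold or surround its metal centres. The order among these 3 was within the spread between libraries, since MT-CO1 had a within-group coefficient of variation of 12.4%. MT-ATP8 (3893) and MT-ATP6 (2898), membrane subunits of the ATP synthase, came next, then MT-ND4 (2624), MT-CYB (2095), the cytochrome b of complex III, and MT-ND2 (2089). MT-ND3, MT-ND4L and MT-ND1 lay between 1870 and 1885 CPM per kilobase and were not separated by their spread. MT-ND5 was lower, at 662.3.

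MT-ND6 had the lowest MT-encoded level, at 233.7 CPM per kilobase, and 8 nuclear members were above it. It is the single member on the other strand of mitochondrial DNA, and its mRNA is known to lack a poly(A) tail, which these libraries selected for. MT-ND6 was at 93.7 and 64.3 CPM in GFP untreated libraries, 104.4 and 172.8 with IFNB, 126.3, 138.2, 203.5 and 118.3 in LTR8B untreated libraries, and 75.57, 121.0, 87.03 and 167.2 with IFNB. Both IFNB libraries of GFP cells lay above both untreated ones, the groups of LTR8B cells overlapped, and its within-group coefficient of variation of 32.05% was the highest among members.

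Among the nuclear members, ATP5F1B, the catalytic beta subunit of the ATP synthase, was highest at 559.3 CPM per kilobase, and 0 nuclear members were above MT-ND5. UQCRH, the hinge protein of complex III, followed at 446.7, COX7C at 404.1 and COX4I1, a regulatory subunit of complex IV, at 346.5. Complex IV had the highest nuclear median (189.8 CPM per kilobase, lowest COX5B at 106.2), followed by complex V (152.2, lowest ATP5F1E at 73.54), complex II (114.8, from SDHA at 70.11 to SDHD at 178.9), complex III (108.9, lowest UQCRFS1, the Rieske iron-sulfur protein, at 29.79) and complex I (67.46, from NDUFV3 at 14.69 to NDUFS5 at 200.9). Moving NDUFA4 to complex IV gave medians of 68.02 for complex I and 185.2 for complex IV. These levels divide by the median annotated length of each gene's protein-coding transcripts, so a gene that uses a short form reads low. The median within-group coefficient of variation was 6.486% for nuclear members (1.718% for ATP5PF to 14.57% for NDUFS7) and 11.47% for MT-encoded members (4.512% for MT-CO3 upward).

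**Figure D1:**
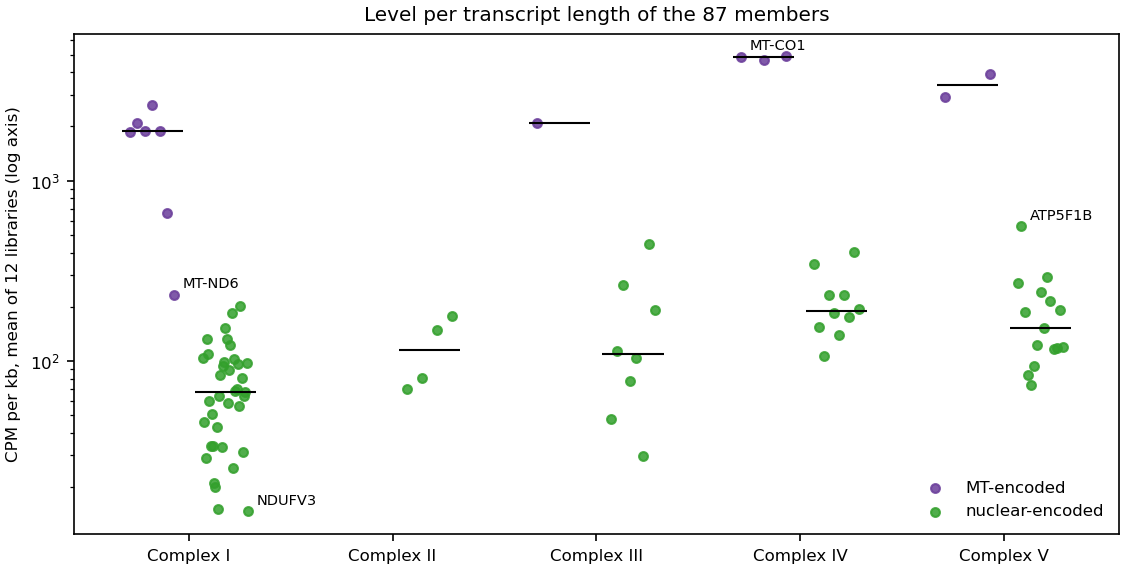
Each point is 1 of the 87 members, placed by complex and by where it is encoded, with its mean CPM per kilobase over 12 libraries on a log axis; bars mark medians. MT-encoded members lie above the nuclear members of their own complex, the lowest of them being MT-ND6 (233.7), and NDUFV3 (14.69) is the lowest member of all.

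In several libraries, members encoded by the same genome lay on the same side of their group's mean. In GFP IFNB library 2 all 13 MT-encoded members were above the mean of their group and 7 of 74 nuclear members were; with 2 libraries in the group, library 1 mirrors these counts. LTR8B untreated library 2 had 67 of 74 nuclear members above its group mean, while libraries 3 and 4 of that group had 17 and 16. LTR8B untreated library 4 had 10 of 13 MT-encoded members above the mean, and LTR8B IFNB library 4 all 13. LTR8B IFNB libraries 1, 2 and 3 had 0, 11 and 0 of 13 above it. Some libraries were divided for 1 set of members. GFP untreated libraries 1 and 2 had 5 and 8 of 13 MT-encoded members above the mean. LTR8B untreated library 1 and LTR8B IFNB library 1 had 36 and 37 of 74 nuclear members above it, yet 1 and 0 of 13 MT-encoded members. A count of members that share a sign is not a count of independent observations. The share of counts from cytosolic ribosomal protein genes varied over the same libraries: 7.30% and 6.64% in GFP IFNB libraries 1 and 2, and 7.71% in LTR8B untreated library 2 against 6.67% in library 4. The 4 MT-encoded genes under 600 bases (MT-ND3, MT-ND4L, MT-ND6, MT-ATP8) together reached 6.18% of the counts of the longer ones in LTR8B untreated library 4 and 9.99% in library 3. The part of these differences in the results below was not tested, and in bulk RNA fewer cells or mitochondria and less RNA from each cannot be told apart.

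**Figure D2:**
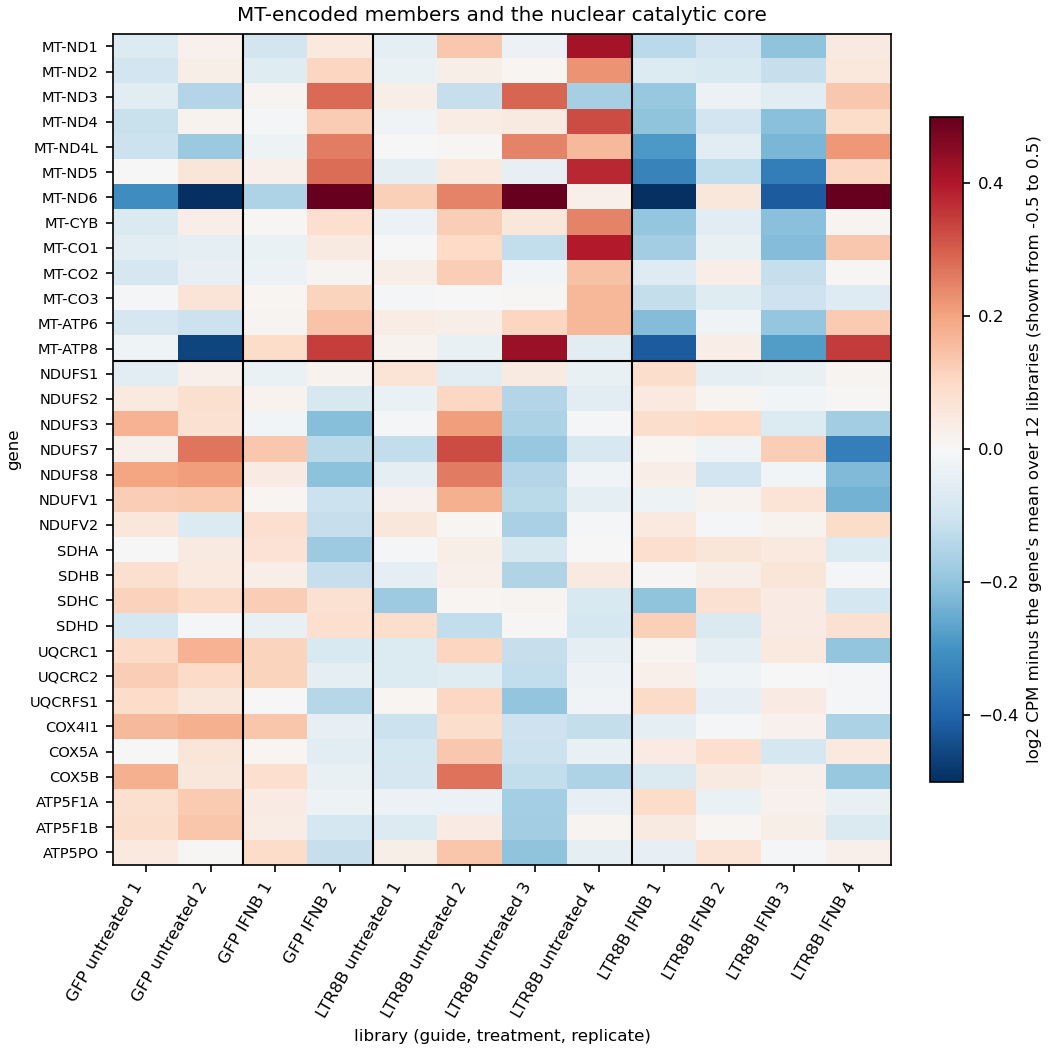
Rows are the 13 MT-encoded members and 20 nuclear subunits chosen as a core list, columns the 12 libraries. Not all of the 20 are catalytic, COX4I1 being a regulatory subunit. Colour is log2 CPM minus the gene's mean over all libraries, with the scale ending at -0.5 and 0.5. LTR8B untreated 4 is high for most MT-encoded rows, LTR8B IFNB 1 and 3 are low for them, and the short MT-ND6 and MT-ATP8 vary most.

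The summed counts of the MT-encoded members were 3.08 and 3.26 times those of the nuclear members in the GFP untreated libraries and 3.29 and 3.94 times in the GFP IFNB libraries. In LTR8B cells the ratios were 3.54, 3.44, 3.75 and 4.39 untreated and 3.09, 3.33, 3.02 and 3.85 with IFNB. With IFNB both GFP libraries lay above both untreated ones, although library 1 was higher by little, while in LTR8B cells the lower end shifted down and the groups overlapped. The MT-encoded share of GFP IFNB library 1 (2.863%) was below both untreated values (2.884% and 2.964%), and that of library 2 (3.185%) above them. Mean nuclear shares were 0.9236% untreated and 0.8402% with IFNB in GFP cells, and 0.8488% and 0.8345% in LTR8B cells. Mean MT-encoded shares in LTR8B cells were 3.199% untreated and 2.763% with IFNB. The mean difference in log2 ratio was 0.18 in GFP cells (from 1.66 to 1.85) and -0.19 in LTR8B cells (from 1.91 to 1.73), against a pooled within-group SD of 0.15. Single libraries moved both: the GFP value was 0.054 without GFP IFNB library 2 and 0.31 without GFP IFNB library 1, and the LTR8B value was -0.11 without LTR8B untreated library 4. Leaving out LTR8B IFNB library 4, the highest of its group (3.85), instead moves the LTR8B value further below 0. Untreated LTR8B cells exceeded untreated GFP cells by 0.25 with no overlap. Leaving out LTR8B untreated library 4, the highest of its group (4.39), makes this value smaller. With IFNB, LTR8B cells were lower by 0.12 (-0.12), a sign that turned (0.0085) without GFP IFNB library 2. That value was -0.25 without GFP IFNB library 1 and -0.19 without LTR8B IFNB library 4. These sums are descriptions of the members and were given no test. Ribosomal protein genes took 7.82% ± 0.179 (SD, n = 2) of counts in untreated and 6.97% ± 0.473 in IFNB-treated GFP cells, against 7.05% ± 0.465 and 6.94% ± 0.272 (n = 4) in LTR8B cells.

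**Figure D3:**
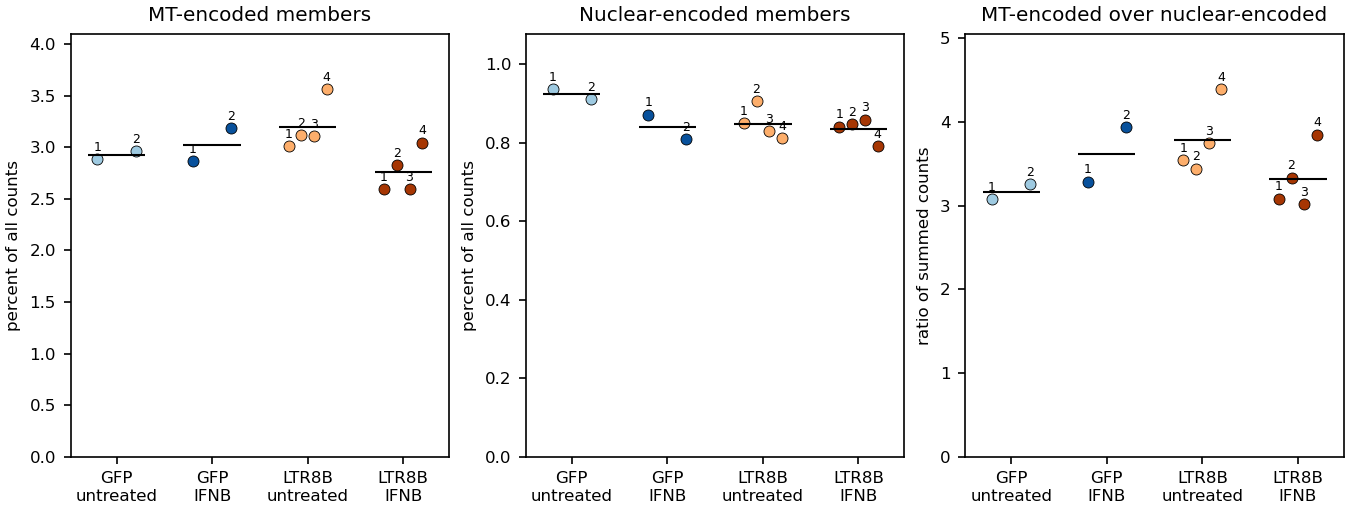
Points are single libraries, numbered by replicate, and bars are group means: the share of counts from MT-encoded members, the share from nuclear members, and their ratio, all on axes from 0. The ratio runs from 3.02 (LTR8B IFNB 3) to 4.39 (LTR8B untreated 4), and nuclear shares are highest in the GFP untreated libraries (0.937% and 0.910%).

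IFNB against untreated cells asks whether 4 h of interferon changed transcripts of the respiratory chain. In GFP cells edgeR called 0 of 87 members, against 3.2% of all genes tested, with 0 MT-encoded and 2 nuclear members (ATP5MC1 and NDUFS8) at an unadjusted p under 0.05. Here and below, percentages beside called members are shares of genes past the adjusted threshold. Counts at an unadjusted p are given without their share over all genes, so no excess can be read from them. DESeq2 also called 0 (3.32% of its genes). All 13 MT-encoded estimates were above 0, with a median of 0.10 on the log2 scale, and 63 of 74 nuclear estimates were below 0, with a median of -0.10, while the median of all genes was -0.01. Among the MT-encoded members, MT-ND3 and MT-ND4L shared the lowest adjusted p, 0.54 by edgeR (log2 0.25 and 0.27, SE 0.14 each), and MT-ND6 the highest estimate (0.81, SE 0.44). Under another scaling (relative log expression) 12 of 13 were above 0, and without GFP IFNB library 2 the count was 9 of 13 with a median of 0.03. That omission also left 50 of 74 nuclear estimates below 0, with a median of -0.03. Without GFP IFNB library 1 the medians were 0.17 and -0.18, and without GFP untreated library 1 the MT-encoded median was 0.06, with 10 of 13 above 0. Of the catalytic core, NDUFS8, which carries iron-sulfur clusters of complex I, had the lowest estimate, at -0.28 (SE 0.12, edgeR adjusted p = 0.40).

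In LTR8B cells edgeR also called 0 of 87 members, against 4.5% of all genes, with 6 MT-encoded and 2 nuclear members at an unadjusted p under 0.05. All 13 MT-encoded estimates were below 0 (median -0.17), and the 74 nuclear estimates were divided, with 42 above 0 and a median of 0.02 against -0.01 for all genes (32 above 0 and a median of -0.01 without LTR8B untreated library 4). MT-CYB came nearest among MT-encoded members. The untreated libraries held 2337, 2595, 2475 and 2829 CPM of it, those given IFNB 2086, 2288, 2061 and 2403 CPM, so that the groups overlapped only through IFNB library 4 and untreated library 1. On the log2 scale the estimate was -0.21 (SE 0.07, 95% interval -0.35 to -0.07, edgeR adjusted p = 0.094). DESeq2 called this gene alone (adjusted p = 0.047, against 4.52% of its genes). With no filter on low counts edgeR called 3 members (MT-CYB, MT-ND1 and MT-ND5, adjusted p = 0.0346, 0.0185 and 0.00566), against 2.62% of the genes then tested, and without LTR8B IFNB library 4 it called MT-CYB (adjusted p = 0.045). With the replicate number as a block edgeR called 5 MT-encoded members, all lower (MT-CYB, MT-ND5, MT-ND4, MT-ND1 and MT-CO1). Whether the numbers pair the libraries is not settled by the labels or the data. Shares of all genes called with the block or with a library left out are not given. No excess can be read from those calls.

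The MT-encoded estimates in LTR8B cells ran from -0.38 (MT-ND6, SE 0.31) to -0.05 (MT-ND3, SE 0.10). MT-CO3, a core subunit of complex IV, reached 3811, 3820, 3841 and 4287 CPM in untreated libraries, against 3517, 3664, 3557 and 3656 CPM after IFNB. These groups did not overlap, yet its adjusted p by edgeR was 0.26 (log2 -0.13, SE 0.05). MT-ND5, the largest complex I core subunit of mitochondrial DNA, reached 1150, 1229, 1155 and 1543 CPM in untreated libraries, against 942.1, 1090, 935.8 and 1277 CPM after IFNB. Its groups overlapped, and its estimate was -0.26 (SE 0.12, edgeR adjusted p = 0.37). Without LTR8B untreated library 4, the library with the highest MT-encoded share, all 13 estimates were still below 0 and their median was -0.12, with 1 at an unadjusted p under 0.05. Among nuclear members NDUFV3 and NDUFA9 had the lowest edgeR adjusted p, at 0.084 (log2 -0.19, SE 0.06) and 0.13 (log2 0.17, SE 0.06).

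**Figure D4:**
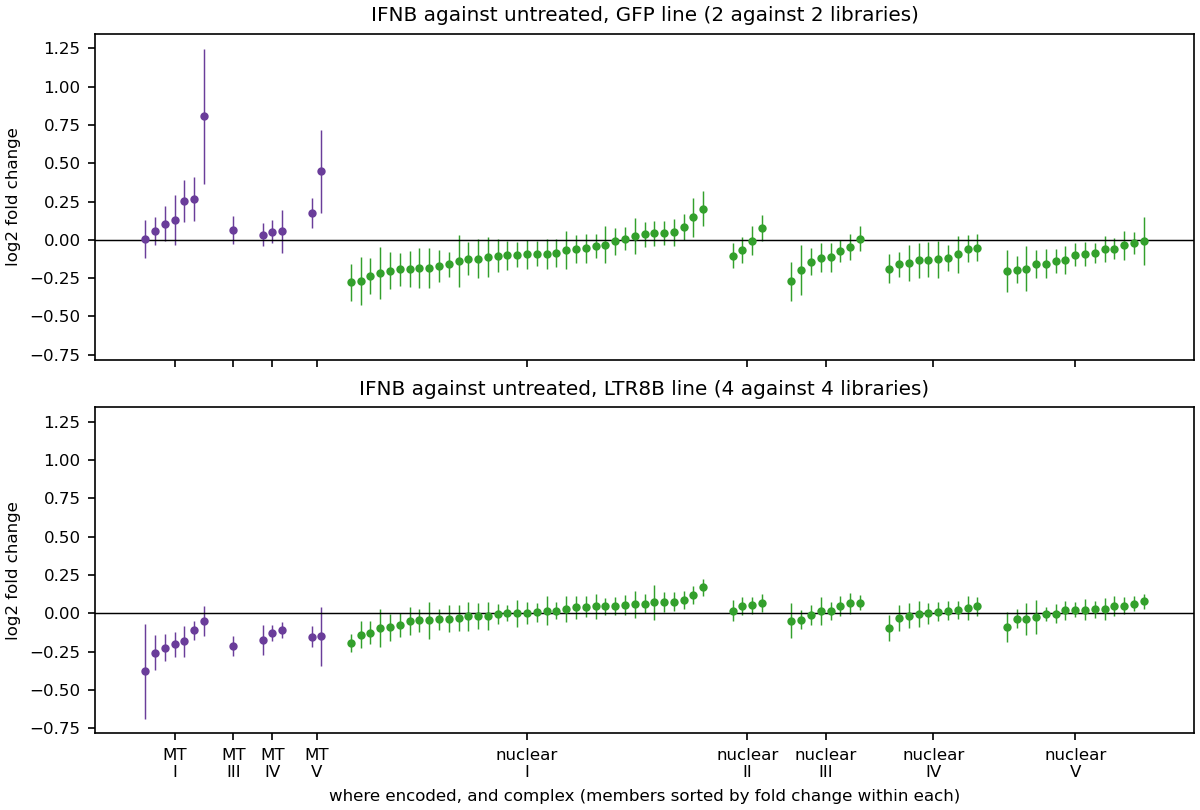
Points are log2 fold changes with IFNB for the 87 members, sorted within each complex, and bars are 1 standard error derived from the edgeR test. Purple is MT-encoded and green nuclear. In GFP cells the MT-encoded points lie at or above 0 and most nuclear points below it, and in LTR8B cells the MT-encoded points lie below 0 and the nuclear points around it; none passed the adjusted threshold of 0.05 in either line.

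Averaged over both lines, 1 of 87 members passed and fell with IFNB, where 1.01% of all genes were called lower and 5.28% higher (6.29% in all). This was NDUFV3, an accessory subunit of the electron input module of complex I (chr21:42879644-42913304, + strand). It was at 49.1 and 44.9 CPM in untreated and 41.2 and 43.0 CPM in IFNB-treated GFP cells, and at 49.7, 51.3, 50.0 and 47.9 CPM in untreated and 41.2, 43.9, 43.8 and 45.1 CPM in IFNB-treated LTR8B cells. The groups did not overlap within either line, and all 6 treated libraries were below the untreated libraries of their line. The averaged log2 estimate was -0.18 (SE 0.05, 95% interval -0.28 to -0.07), with an adjusted p of 0.045 by edgeR and 0.018 by DESeq2, which called 1 member against 6.24% of its genes. The call is marginal: with each of 10 of the 12 libraries left out in turn it was lost, and its adjusted p then ran up to 0.29 (without GFP untreated library 1). Exons of NDUFV3 are shared with 0 other genes above 1 CPM.

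No MT-encoded member had an adjusted p under 0.53 in the averaged response. By complex, the nuclear estimates nearest the ends were NDUFS8 (-0.18, SE 0.08) and NDUFC1 (0.12, SE 0.07) in complex I, SDHB (-0.03, SE 0.05) and SDHD (0.07, SE 0.05) in complex II, and UQCR11 (-0.13, SE 0.08) and UQCRH (0.01, SE 0.05) in complex III. In complex IV they were COX7B (-0.12, SE 0.07) and COX5A (-0.00197, SE 0.05), and in complex V ATP5F1D (-0.15, SE 0.08) and ATP5PB (0.02, SE 0.04). None of these 10 passed, with adjusted p from 0.21 to 0.99 by edgeR. For 86 of 87 members, MT-ND6 being the exception, the 95% interval of the averaged response lay within a 1.5-fold change in either direction.

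The guide comparison sets the LTR8B line against the GFP line for the same transcripts. Each guide was carried by 1 line, so repression at LTR8B and other differences between the lines cannot be told apart. In untreated cells edgeR called 0 of 87 members, against 0.36% of all genes, with 1 MT-encoded (MT-ATP6) and 11 nuclear members at an unadjusted p under 0.05. With IFNB it called 0, against 0.354%, with 2 MT-encoded members (MT-CO3 and MT-ND5) at an unadjusted p under 0.05. Averaged over treatments it called 0, against 2.14%, with 9 nuclear members at an unadjusted p under 0.05. These percentages are of genes called after adjustment and are not the background for the counts at an unadjusted p. DESeq2 called 1, 0 and 1 members in these comparisons, against 1.26%, 0.733% and 3.85% of its genes.

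The member DESeq2 called was ATP5MC1, a gene for the c subunit of the rotating ring of the ATP synthase. It was the least abundant ATP5MC gene, with a mean of 50.39 CPM against 99.54 for ATP5MC2 and 202.5 for ATP5MC3. DESeq2 did not call the more abundant ones. ATP5MC1 was at 60.3 and 57.3 CPM in untreated GFP cells and at 47.5, 51.9, 46.0 and 47.1 CPM in untreated LTR8B cells, and at 53.7 and 49.0 against 44.9, 48.8, 49.5 and 48.9 CPM with IFNB. Only the untreated groups were free of overlap. The averaged log2 difference was -0.19 (SE 0.05), with an adjusted p of 0.068 by edgeR and 0.030 by DESeq2. COX4I1 was next, at -0.16 (SE 0.05, edgeR adjusted p = 0.13). Without LTR8B untreated library 2 edgeR called both (adjusted p = 0.032 and 0.040). The share of all genes called in that fit is not given. Other nuclear estimates near the ends of their complexes were NDUFB7 (-0.20, SE 0.10), SDHC (-0.15, SE 0.06), UQCRB (-0.13, SE 0.05) and COX7C (-0.17, SE 0.07) on the low side and NDUFV3 (0.06, SE 0.05) and ATP5PD (0.07, SE 0.05) on the high side, none of which passed.

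In untreated cells 13 of 13 MT-encoded estimates for LTR8B against GFP were above 0 (median 0.15) and 65 of 74 nuclear estimates below 0 (median -0.11). With IFNB 13 of 13 MT-encoded estimates were below 0 (median -0.15) and 40 of 74 nuclear estimates above 0 (median 0.01). Without LTR8B untreated library 4 the untreated counts were 11 of 13 and 63 of 74, and the MT-encoded median was 0.07. Without LTR8B untreated library 2 the untreated nuclear median was -0.17. Without GFP IFNB library 2 the counts with IFNB were 11 of 13 below 0 and 15 of 74 above, with medians of -0.05 and -0.08. Each line's libraries enter both a guide comparison and an IFNB comparison, so these values restate part of what the IFNB comparisons show.

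The interaction term compares the IFNB response of LTR8B cells with that of GFP cells, 2 comparisons that share no library. It called 0 of 87 members by edgeR (0% of all genes) and 0 by DESeq2 (0% of its genes), with 4 MT-encoded members (MT-ATP6, MT-ND4L, MT-CYB and MT-ND4) and 0 nuclear ones at an unadjusted p under 0.05. No member had an edgeR adjusted p under 0.996. All 13 MT-encoded estimates were below 0, with a median of -0.30, and 65 of 74 nuclear estimates were above 0, with a median of 0.12, while the median of all genes was -0.003. The MT-encoded count was 13 of 13 in each of the scalings and single-library omissions run, with medians from -0.37 to -0.22. Without GFP IFNB library 2, 53 of 74 nuclear estimates were above 0 with a median of 0.04, and 0 MT-encoded members were at an unadjusted p under 0.05 by edgeR. Without GFP IFNB library 1 the nuclear median was 0.19. MT-ATP6 had the lowest unadjusted p among them (log2 -0.33, SE 0.12, 95% interval -0.58 to -0.07, edgeR adjusted p = 0.996). For 77 of 87 members the interval of this term lay within 1.5-fold. For 7 MT-encoded members (MT-ND6, MT-ND5, MT-CO1, MT-ND3, MT-ND4, MT-ND4L and MT-ATP8) and 3 nuclear ones (UQCR11, NDUFA5 and NDUFA7) it reached past that size.

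Genes that act on the respiratory chain without being among its members were compared through lists, which were chosen with earlier results of these data known. Over all genes tested, 5.28% were called higher and 1.01% lower in the averaged IFNB response; the list counts below stand against these shares. In mitochondrial RNA processing and decay, 0 of 20 genes fell in the averaged IFNB response. PNPT1 rose. This gene, the mitochondrial polynucleotide phosphorylase that degrades RNA and a known interferon-induced gene, was at 113.1 and 114 CPM in untreated GFP cells and 359.4 and 372.3 CPM with IFNB. In LTR8B cells it was at 109.3 to 123.4 CPM untreated and 339.4 to 388.9 CPM with IFNB, so the treated libraries were far above all untreated ones. Averaged over the lines it rose by 1.66 on the log2 scale (SE 0.05; adjusted p = 2.5e-14 by edgeR).

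Among 31 assembly factors of complexes II to V, 1 rose and 1 fell in the averaged response. SCO2, a copper chaperone for complex IV, rose by 0.75 on the log2 scale (SE 0.12; adjusted p = 0.00033 by edgeR). GFP libraries held 9.34 and 10.3 CPM of it untreated and 19.8 and 13.7 CPM after IFNB, and LTR8B libraries 7.88 to 11.4 CPM and 12.8 to 17.2 CPM, with no overlap in either line. Its exons share 339 bases with TYMP, which averaged 0.536 CPM, so the split of counts with TYMP is uncertain. They also share 857 bases with a second annotated SCO2 model, which had no counts in the deposited table. SDHAF1, which helps insert iron-sulfur clusters into complex II, fell by 0.46 on the log2 scale (SE 0.10; adjusted p = 0.0048 by edgeR). It was at 7.60 and 8.34 against 4.29 and 5.27 CPM in GFP cells and at 7.10, 8.03, 6.46 and 6.63 against 5.87, 6.12, 6.43 and 6.41 CPM in LTR8B cells, so the separation in LTR8B cells was narrow. It passed in GFP cells (log2 -0.74, SE 0.16, edgeR adjusted p = 0.0099) and not in LTR8B cells (-0.18, SE 0.11, adjusted p = 0.57), and the difference between the lines did not pass (adjusted p = 0.996). In GFP cells alone the calls of SCO2 and SDHAF1 were less stable, with adjusted p up to 0.32 and 0.14 over the alternatives. The averaged calls of PNPT1, SCO2 and SDHAF1 held in all 18 alternatives.

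In the remaining lists, 2 of 72 mitochondrial ribosomal proteins fell, MRPL36 (-0.28, SE 0.07, edgeR adjusted p = 0.024) and MRPL34 (-0.22, SE 0.06, edgeR adjusted p = 0.048), and their list had a median of -0.05. Of 17 genes for mobile electron carriers and quinone synthesis 1 rose, GPD2, the mitochondrial glycerol-3-phosphate dehydrogenase (0.23, SE 0.06, edgeR adjusted p = 0.041). Omitting single libraries ended the calls of MRPL34 and GPD2 in 9 cases each and that of MRPL36 in 4. None passed among 16 complex I assembly factors, 16 genes of mitochondrial DNA upkeep and transcription, 12 nuclear regulators, 16 citric acid cycle enzymes and 7 further subunits, with 2, 3, 3, 0 and 1 of them at an unadjusted p under 0.05 by edgeR. Of the regulators, ESRRA (-0.22, SE 0.07, edgeR adjusted p = 0.071) and PPARGC1A (-0.37, SE 0.13, edgeR adjusted p = 0.12) came nearest. No gene of these lists passed by edgeR in a guide comparison or in the interaction.

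**Figure D5:**
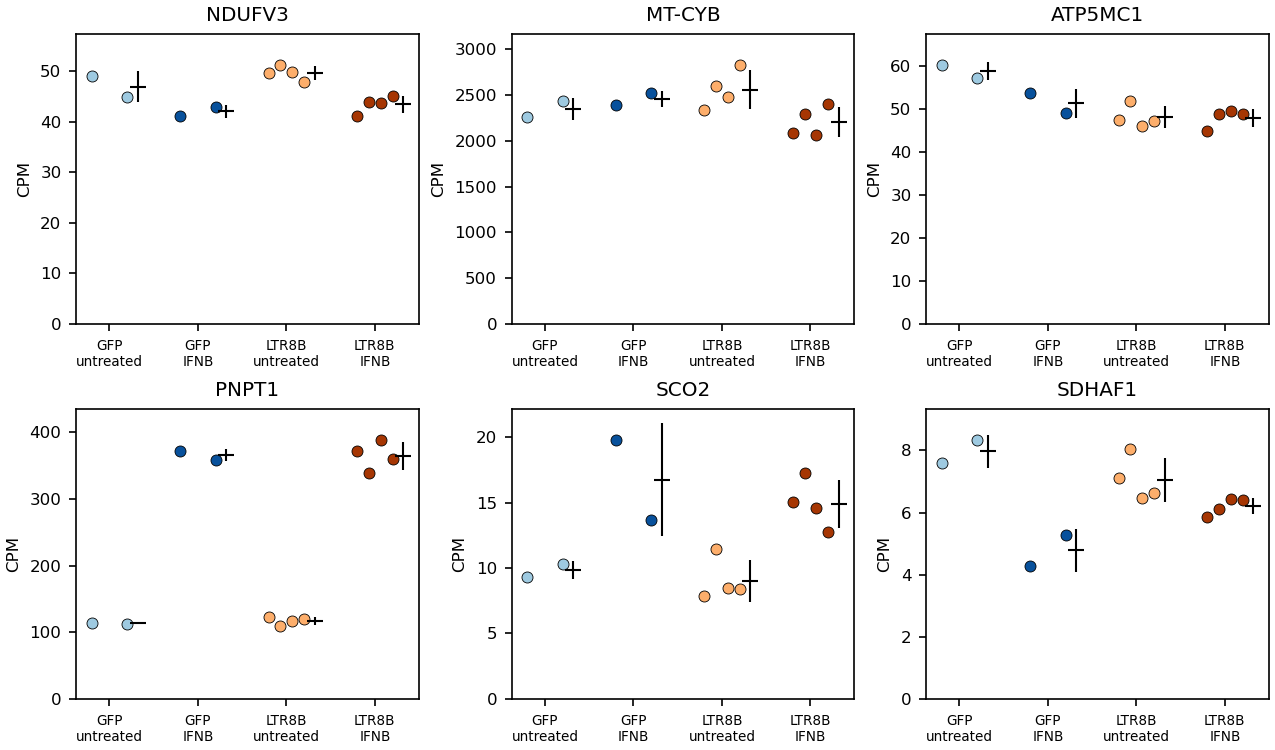
Points are CPM in single libraries for NDUFV3, MT-CYB, ATP5MC1, PNPT1, SCO2 and SDHAF1, with the mean and SD of each group beside them and axes from 0. NDUFV3 and MT-CYB differ by small amounts between treated and untreated libraries, whereas PNPT1 is about 3-fold higher in every treated library.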

How the data were processed

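Polyadenylated RNA was sequenced from 12 HT1080 libraries. The authors deposited whole-number counts per gene, and per the submitters' processing notes Salmon 0.13.1, DESeq2 1.38.3 and hg38 were used; whether counting used strand is not given in the sources used here. Their deposited normalized table was not used. Counts were analysed with edgeR 4.0.16: genes were kept with filterByExpr over the 4 groups (minimum count 10, minimum total 15), scaled by TMM, and fitted with the robust quasi-likelihood test over all 12 libraries, with 7 contrasts and Benjamini-Hochberg adjustment over 16393 genes at 0.05. The script was tested on simulated data. Members were matched by symbol, lengths and positions come from GENCODE release 29 (hg38), and promoters from RefSeq (GRCh38.p14). Of the nuclear members, 28 share exon bases with another gene above 1 CPM, 22 of them on the opposite strand, and their counts are uncertain to that extent. Reads were not counted by molecular identifier.

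The members and gene lists were chosen with earlier results of these data known. Genes named are SP140, all MT-encoded members, the catalytic core, every member called in any comparison, the extremes of each complex in level and in the averaged responses, and up to 4 genes per further list with the smallest adjusted p. Alternatives were DESeq2, relative log expression scaling, no low-count filter, scaling without MT-encoded genes, pooled pseudogene counts, a block for the replicate number, and each library left out in turn. A result of the further lists is not reported here.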

Additional observations from a re-analysis of the deposited data

Results flagged for a closer look

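Among 180 sets of 4 LTR8B libraries examined for single values far from the others, 16 stood apart. The rule flags about 1 in 20 independent sets by chance. The sets here share libraries in which members moved together, so the 16 cannot be read against that rate. LTR8B untreated library 4 was high for MT-ND4 (4512 CPM, others 3558 to 3708) and MT-CO3 (4287 CPM, others 3811 to 3841) and low for the complex I subunits NDUFA12 (55.54 CPM, others 65.46 to 66.47) and NDUFB1 (24.43 CPM, others 29.56 to 29.97). LTR8B untreated library 2 was high for NDUFS5 (122.3 CPM, others 102.5 to 105.7), NDUFS6 (74.16 CPM, others 60.63 to 62.74), COX4I1 (291.4 CPM, others 252.4 to 255.6), COX5B (90.9 CPM, others 67.62 to 71.1) and COX6B1 (116.0 CPM, others 98.22 to 100.2). LTR8B untreated library 3 was high for MT-ATP8 (1069 CPM, others 762.2 to 801.3) and NDUFA5 (72.4 CPM, others 56.26 to 57.01) and low for ATP5F1A (507.0 CPM, others 553.4 to 559.1).

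With IFNB, LTR8B library 1 was low for NDUFA8 (33.17 CPM, others 36.8 to 37.5) and ATP5MC1 (44.85 CPM, others 48.76 to 49.45), library 4 was low for ATP5MC3 (195.7 CPM, others 202.6 to 204.1), and library 3 was high for ATP5PF (119.0 CPM, others 115.3 to 115.6).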

How the results depend on the processing

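Of 87 members, the counts called were 0 in the comparisons of IFNB in LTR8B cells, of the guide in untreated cells, of the guide with IFNB and of the guide averaged over treatments, and 1 in the averaged IFNB response. DESeq2 gave 1 in place of 0 for IFNB in LTR8B cells, for the guide in untreated cells and for the guide averaged over treatments. With no low-count filter edgeR gave 3 for IFNB in LTR8B cells, 0 for the averaged IFNB response and 1 (MT-ND5) for the guide with IFNB. Leaving out 1 library gave 0 to 1 for IFNB in LTR8B cells, 0 to 1 for the averaged IFNB response and 0 to 2 for the averaged guide effect. The cause was not tested. Other scalings and pooled pseudogene counts moved no count. Shares of all genes called are not given for the guide comparisons with no low-count filter or for fits with 1 library left out. No excess can be read from those counts.

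A block for the replicate number was set within each line for the IFNB comparisons and the interaction. With it edgeR called 5 members for IFNB in LTR8B cells, all lower (MT-CYB, MT-ND5, MT-ND4, MT-ND1 and MT-CO1, adjusted p = 0.0013, 0.0012, 0.0020, 0.0082 and 0.013). For the guide comparisons the block joined equal numbers across the lines, and edgeR called 1 member (MT-ND5, adjusted p = 0.013) with IFNB. The blocks changed no other count. Shares of all genes called with the blocks are not given, so no excess can be read from these calls. The labels do not say that a number marks a shared culture. Deviations of same-numbered LTR8B libraries from their group means correlated at 0.278, 0.288, 0.0794 and 0.268 over 16393 genes, and at 0.438, 0.604, 0.132 and 0.439 over the 9680 genes at 10 CPM or more. The pair numbered 3 was below 0.1 over all genes and did not correlate best with its own number, whereas all LTR8B pairs were above 0.1 over the more abundant genes, so the data do not settle the pairing. Same-numbered GFP libraries correlated at 0.146 over 16393 genes and 0.266 over 9680, each best with its own number. With 2 libraries per group both GFP pairs give the same value. All these correlations are within a line and do not bear on the block used for the guide comparisons. The results reported come from the fit without a block. The choice between these gene sets was made after the blocked calls were known.

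For the 20 named gene results, 311 values under alternatives kept their side of the threshold, 33 lost the call and 16 gained one, with no change of sign. As a measure of precision, the 95% interval lay within 1.5-fold for 83 of 87 members in the GFP response, 86 in the LTR8B response and 77 in the interaction.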
